A study of Homo sapiens with 12 samples.

Results

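The replication-dependent histone genes are the clustered genes of the linker histone H1 and the core histones H2A, H2B, H3 and H4. They were taken as every gene whose symbol begins with HIST, a cluster number from 1 to 4 and H. This rule found 71 of the 19293 genes in the deposited count table. By class they comprise 6 H1, 17 H2A, 18 H2B, 15 H3 and 15 H4 genes, and 55 of them lie on chromosome 6, 15 on chromosome 1 and 1 on chromosome 12.

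Core histones form the protein spool of the nucleosome, and H1 binds the DNA that enters and leaves it. A dividing cell makes most of its new histones in S phase from these genes, whose mRNAs characteristically end in a conserved stem-loop bound by the protein SLBP in place of a poly(A) tail. Some of the same genes can also give a longer polyadenylated mRNA, a form described in cells that have left the cell cycle.

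RNA was measured in the human fibrosarcoma line HT1080, an established cell line, at passage 15 to 20. The 12 libraries form 4 groups of 3: cells given both treatments (combination), cells irradiated with 20 Gy (radiation), cells given the cytokine interferon gamma at 10 ng/ml (IFNγ), and cells given neither (untreated). All cells were harvested after 24 h. Whether the 3 replicates of a group are separate cultures is not in the labels, and each p-value below reflects only how much these libraries vary.

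Total counts per library ran from 9675126 to 11010656, and 12160 genes entered the test. Among treatment responses outside the histone genes, IRF1, a transcription factor induced by interferon, averaged 194 ± 23.1 CPM in IFNγ libraries against 6.90 ± 0.0883 CPM in untreated libraries (SD, n = 3 each). CDKN1A, the p53-induced inhibitor of cyclin-dependent kinases, averaged 612 ± 8.77 CPM in radiation libraries against 112 ± 8.11 CPM in untreated libraries. CPM is the count per 1000000 counts of the scaled library total. Summed mesenchymal markers lay between 9495 and 10830 CPM in the 12 libraries, and 6 epithelial markers summed to between 1.49 and 4.62 CPM. Among the 8 mesenchymal markers, THY1 had 0 to 2 counts in each library and S100A4 averaged 1.035 to 1.571 CPM by group. The 6 immune markers summed to 165 to 171 CPM in radiation libraries and 116 to 124 CPM in untreated libraries, nearly all of it CD68; the other 5 immune markers summed to 0 to 12 counts in 11 libraries and to 45 in radiation replicate 2. Whether any of this moves the histone values was not tested.

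The stem-loops of 7 tested genes are shown because the RNA end is the feature that sets this family apart. Each is printed 5′ to 3′ on the gene's strand, as DNA letters, with 6 bases on either side. Capitals mark the 16-base stem-loop. Sequences come from GENCODE release 29 transcripts.
HIST1H2AG: accaacGGCTCTTTTCAGGGCCacccac
HIST2H2BE: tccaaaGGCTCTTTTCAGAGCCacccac
HIST1H2BD: cccaaaGGCTCTTTTAAGAGCCacgcat
HIST1H2AC: cccaaaGGCTCTTTTCAGAGCCccccta
HIST3H2A: cataaaGGCTCTTTTCAGAGCCacctac
HIST1H4I: taaaaaGGCCCTTTTTAGGGCCcctaag
HIST1H4B: tccaatGGCCCTTTTCAGGGCCgcccac
The search motif was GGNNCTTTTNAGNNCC on the transcript strand. It was found in an annotated coding transcript of 32 of the 71 genes and of 15 of the 20 that were tested. It was in 0.0866% of 83129 coding transcripts of all genes, a share of transcripts rather than of genes. The form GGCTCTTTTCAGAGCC was the most frequent, with 18 genes, all of the H2A, H2B and H3 classes. The forms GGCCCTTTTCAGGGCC, with 5 genes, and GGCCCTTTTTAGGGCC, with 3, were found in H4 genes alone among the 32. HIST1H2AG carried a form of its own, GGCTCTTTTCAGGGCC. For 33 of the 71 genes the annotation holds no bases beyond the coding sequence, so a missing motif there says nothing about the RNA.

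The upstream sequences of 3 genes are shown: HIST1H2AC because it shares a single stretch of DNA with the H2B gene HIST1H2BC, read outward from it, and HIST2H2BE and HIST1H4B as an H2B gene called higher and an H4 gene called lower after radiation. HIST1H2AC and HIST1H2BC (H2AC6 and H2BC4 in RefSeq) start 246 bases apart on opposite strands, and the 250 bases upstream of HIST1H2AC (chr6:26123922-26124171, plus strand) hold that whole stretch. The others are the 250 bases upstream of HIST2H2BE (chr1:149886683-149886932, minus strand) and of HIST1H4B (chr6:26027284-26027533, minus strand). Coordinates and bases are those of RefSeq on GRCh38.p14. Capitals mark the CCAAT box, the TATA box searched as TATAAA, and the octamer ATTTGCAT, each searched on both strands. Capitals therefore include motifs read from the opposite strand, and matches may overlap.
HIST1H2AC: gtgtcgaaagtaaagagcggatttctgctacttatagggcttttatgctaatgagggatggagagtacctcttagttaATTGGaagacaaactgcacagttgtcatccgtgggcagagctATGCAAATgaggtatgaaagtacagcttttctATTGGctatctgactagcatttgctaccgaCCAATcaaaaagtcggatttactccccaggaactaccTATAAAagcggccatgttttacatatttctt
HIST2H2BE: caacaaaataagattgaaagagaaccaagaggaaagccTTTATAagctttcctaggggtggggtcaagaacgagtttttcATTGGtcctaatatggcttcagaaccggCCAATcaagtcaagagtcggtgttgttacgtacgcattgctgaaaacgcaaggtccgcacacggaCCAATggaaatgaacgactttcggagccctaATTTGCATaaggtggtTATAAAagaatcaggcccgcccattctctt
HIST1H4B: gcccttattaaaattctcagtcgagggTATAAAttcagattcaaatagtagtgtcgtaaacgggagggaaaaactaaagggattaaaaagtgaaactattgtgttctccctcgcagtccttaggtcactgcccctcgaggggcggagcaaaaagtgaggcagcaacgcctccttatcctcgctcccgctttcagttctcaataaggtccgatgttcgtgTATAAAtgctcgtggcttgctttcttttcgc
RefSeq held a promoter of 300 bases, 250 before and 50 after the start, for 66 of the 71 genes. CCAAT was in 56 of these and in 34.6% of all 35116 promoters, TATAAA in 45 and in 11.5%, and the octamer in 26 and in 1.77%. By class the octamer was in 14 of 18 H2B and 11 of 16 H2A promoters but in 1 of 13 H3, 0 of 13 H4 and 0 of 6 H1 promoters. CCAAT was in 3 of the 13 H4 promoters and in every promoter matched for the other classes. These are matches of letters, not sites of binding.

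Most of these genes were barely detected. The 71 genes together held 1263 to 1514 counts in combination libraries, 1152 to 1343 in radiation libraries, 1155 to 1246 in IFNγ libraries and 988 to 1126 in untreated libraries, at most 0.0139% of a library. Just 20 genes reached 10 or more counts in 3 libraries, and the same 20 passed edgeR's filter on low counts. They are HIST1H1C and HIST1H1E of the H1 class, HIST1H2AC, HIST1H2AG, HIST1H2AI and HIST3H2A of the H2A class, HIST1H2BC, HIST1H2BD, HIST1H2BE, HIST1H2BJ, HIST1H2BK, HIST1H2BN, HIST2H2BE and HIST3H2BB of the H2B class, HIST1H3H of the H3 class, and HIST1H4A, HIST1H4B, HIST1H4E, HIST1H4H and HIST1H4I of the H4 class. By class, 8 of 18 H2B genes but 1 of 15 H3 genes could be tested. Of the other 51 genes, 45 never reached 10 counts in any library. The 8 genes with 0 counts in all 12 libraries were HIST1H2AA, HIST1H2AD, HIST1H2AK, HIST1H2BA, HIST1H2BI, HIST2H3A, HIST2H3C and HIST3H3. The detected but untested H1 genes were HIST1H1A, HIST1H1B, HIST1H1D and HIST1H1T, with at most 5 counts in any library. The detected but untested H2A genes were HIST1H2AB, HIST1H2AE, HIST1H2AH, HIST1H2AJ, HIST1H2AL, HIST1H2AM, HIST2H2AA3, HIST2H2AA4, HIST2H2AB and HIST2H2AC, with at most 9 counts in any library. The detected but untested H2B genes were HIST1H2BB, HIST1H2BF, HIST1H2BG, HIST1H2BH, HIST1H2BL, HIST1H2BM, HIST1H2BO and HIST2H2BF, with at most 12 counts in any library. The detected but untested H3 genes were HIST1H3A, HIST1H3B, HIST1H3C, HIST1H3D, HIST1H3E, HIST1H3F, HIST1H3G, HIST1H3I, HIST1H3J, HIST2H3D and HIST2H3PS2, with at most 16 counts in any library. The detected but untested H4 genes were HIST1H4C, HIST1H4D, HIST1H4F, HIST1H4G, HIST1H4J, HIST1H4K, HIST1H4L, HIST2H4A, HIST2H4B and HIST4H4, with at most 28 counts in any library. A count of 0 allows a level of up to 0.304 CPM in the library with the smallest scaled total, as counting error alone.

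Levels among the 20 genes spanned a wide range once divided by coding length. HIST1H2BK was the highest at 63.3 CPM per kilobase of coding sequence, as the mean of all 12 libraries. HIST1H4I followed at 37.1, HIST1H2AC at 33.1, HIST1H1C at 26.8 and HIST2H2BE at 20.9 CPM per kilobase. The lowest was HIST1H1E, at 1.66 CPM per kilobase. Annotated transcripts extend beyond the coding sequence by unequal amounts. The longest has 2194 bases against 381 coding bases for HIST2H2BE, and 381 against 381 for HIST1H2BK. The order may therefore depend on the choice of coding length. The order differed between groups. HIST1H2AC lay above HIST1H4I in combination libraries, at 45.7 and 41.0 CPM per kilobase, and below it in untreated libraries, at 19.6 and 36.3. In untreated libraries HIST3H2A, at 17.7, also lay above HIST2H2BE, at 10.4. Histone genes share long stretches of coding sequence and some overlap one another. Neither the counting tool nor its strand setting is known here, so counts may be split between near-identical genes. The row named HIST1H3D carries an identifier that GENCODE release 29 gives to a locus overlapping HIST1H3D and HIST1H2AD.

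One library stood apart in these genes. The 51 genes below the filter summed to 181 counts in radiation replicate 2, against 35 in radiation replicate 1 and 34 in radiation replicate 3. The other 9 libraries lay between 29 and 89. In radiation replicate 2, 41 histone genes had 3 or more counts, and 22 of these exceeded the sum of the other 2 radiation libraries. By the same rule the number was 0 to 7 for each of the other 11 libraries within its own group. The 22 genes comprised 9 H3, 7 H4, 3 H1, 2 H2A and 1 H2B genes. Among all genes with 3 or more counts in the library, 3.91% exceeded that sum in radiation replicate 2, against 1.22% to 3.17% in the other libraries. The radiation libraries 1 to 3 had 1, 28 and 0 counts of HIST1H4C, 1, 18 and 0 of HIST1H4D, and 0, 12 and 1 of HIST1H3B, all core histone genes and all chosen here after their values were seen. The same libraries had 10, 59 and 3 counts of the interferon-induced gene GBP5 and 1, 8 and 1 of IDO1, an enzyme of tryptophan breakdown. The immune markers PTPRC, LYZ and CD14 were also higher in replicate 2 than in the other radiation libraries. The radiation libraries 1 to 3 had 2, 23 and 1 counts of PTPRC, 4, 14 and 4 of LYZ, and 0, 7 and 2 of CD14, while CD68 had 1655, 1660 and 1688 and CD3E had 0 in each. Without CD68, the immune markers summed to 6, 45 and 7 counts in these libraries, against 0 to 12 in the other groups. Their part in the histone values of this library was not tested. Values with and without this library are given below for some of the results, not for all of them.

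**Figure D1:**
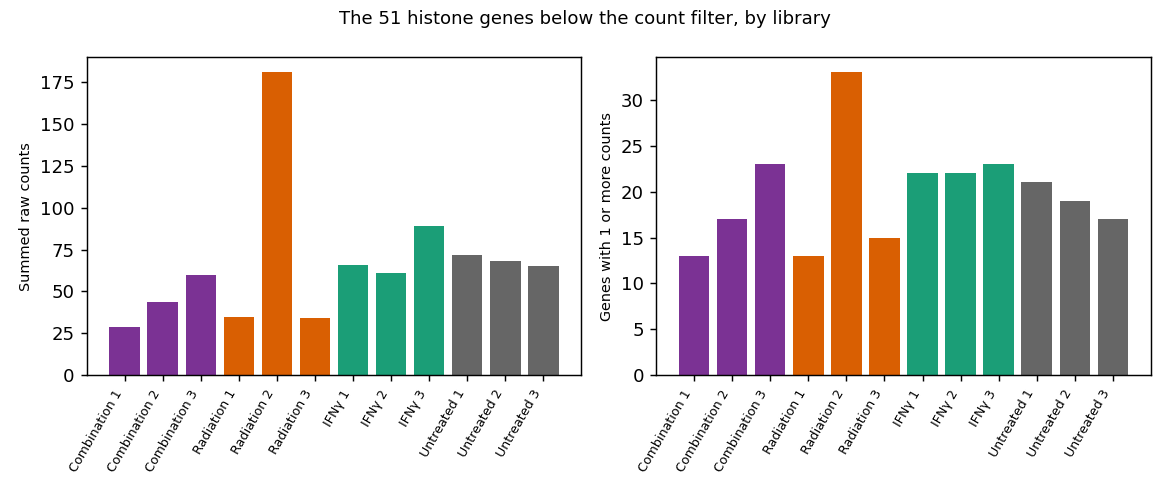
Summed raw counts (left) and number of genes with 1 or more counts (right) for the 51 histone genes below the count filter, 1 bar per library. Radiation replicate 2 has 181 counts from 33 genes, and the other 11 libraries have 29 to 89 counts.

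Summed by class, the H2B and H2A genes lay above the untreated range in every irradiated library, and the H4 and H1 genes did not. The 18 H2B genes summed to 62.3 ± 5.06 CPM in combination libraries, 55.8 ± 1.73 in radiation libraries, 46.7 ± 1.79 in IFNγ libraries and 40.1 ± 2.03 in untreated libraries (SD, n = 3 each). No combination, radiation or IFNγ library overlapped the untreated libraries for H2B. The 17 H2A genes summed to 28.9 ± 1.37 CPM in combination libraries, 26.3 ± 1.01 in radiation libraries, 25.2 ± 3.34 in IFNγ libraries and 18.7 ± 0.816 in untreated libraries, and here too no treated library overlapped the untreated ones. The sums were not tested, since they add genes of very unequal level.

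For the H4 genes the sums were 17.5 ± 0.73 CPM in combination libraries, 17.8 ± 5.75 in radiation libraries, 20.1 ± 1.40 in IFNγ libraries and 19.6 ± 1.05 in untreated libraries. Radiation replicate 2 set the radiation mean, which was 14.6 CPM without it. H1 genes summed to 18.1 ± 0.601 CPM in combination libraries, 16.4 ± 2.43 in radiation libraries, 19.9 ± 2.55 in IFNγ libraries and 19.4 ± 0.685 in untreated libraries, and the radiation mean without replicate 2 was 15.0 CPM. H3 genes were the lowest class, at 4.37 ± 0.662 CPM in combination libraries, 5.66 ± 3.65 in radiation libraries, 4.08 ± 0.556 in IFNγ libraries and 3.41 ± 0.348 in untreated libraries. Without replicate 2 the radiation mean of H3 was 3.57 CPM. In bulk RNA, a change in the share of cells that express a gene and a change in RNA per cell cannot be told apart.

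**Figure D2:**
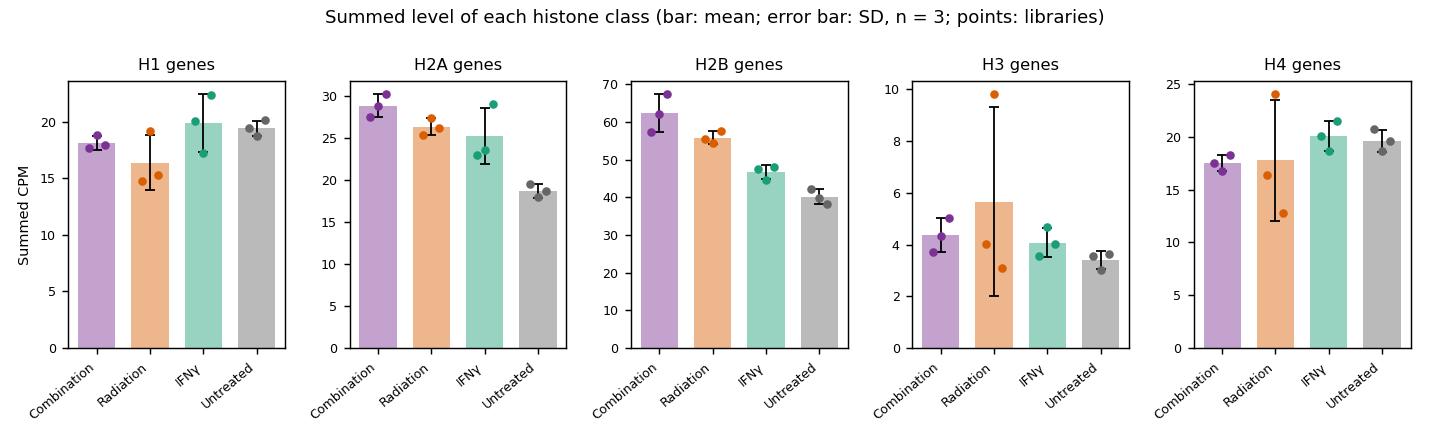
Summed CPM of all genes of each histone class, with bars at the mean of 3 libraries, error bars of 1 SD and a point per library. H2B sums are 55.8 CPM in radiation and 40.1 CPM in untreated cells, and 1 radiation library lies far above the other 2 in the H3 and H4 panels.

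The first comparison asked what 20 Gy did to the histone mRNAs 24 h later. Of the 20 tested genes, 10 were called higher in radiation than in untreated libraries and 3 lower, by edgeR's quasi-likelihood test at a Benjamini-Hochberg adjusted p under 0.05 over all 12160 genes. Among all genes tested, 27.9% were called higher and 28.2% lower. The median log2 fold change of the 20 genes was 0.27 and that of all genes 0.01. By class, 6 of 8 H2B genes, 3 of 4 H2A genes and the single H3 gene were called higher, and 2 of 5 H4 genes and 1 H2A gene were called lower. Neither H1 gene was called. Without radiation replicate 2, 8 were called higher and 5 lower, against 26% and 26.1% of all genes. By DESeq2, 7 were called higher and 3 lower with all libraries, against 24.3% and 23.9% of all genes. The edgeR log2 fold changes of the 8 genes called higher without radiation replicate 2 ran from 0.94 for HIST1H2BJ to 1.70 for HIST1H2AG.

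HIST2H2BE, which encodes an H2B protein from the cluster on chromosome 1, gave the smallest adjusted p of the family. HIST2H2BE had 113, 125 and 125 counts in combination libraries, 114, 120 and 118 in radiation libraries, 41, 54 and 54 in IFNγ libraries and 36, 45 and 42 in untreated libraries. Every library of the irradiated groups lay above every library without radiation. The radiation libraries were higher than the untreated ones by 1.56 ± 0.14 on the log2 scale (SE, adjusted p = 1.64e-14, edgeR).

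Other H2B genes of the large cluster on chromosome 6 moved the same way. HIST1H2BD had 78, 94 and 111 counts in combination libraries, 69, 71 and 93 in radiation libraries, 41, 41 and 39 in IFNγ libraries and 41, 39 and 24 in untreated libraries. It was higher after radiation by 1.21 ± 0.17 on the log2 scale (edgeR adjusted p = 1.96e-08), with no overlap between radiation and untreated libraries. HIST1H2BC had 41, 61 and 59 counts in combination libraries, 39, 48 and 37 in radiation libraries, 28, 22 and 22 in IFNγ libraries and 18, 16 and 15 in untreated libraries. Its log2 fold change in radiation against untreated libraries was 1.38 ± 0.23 (edgeR adjusted p = 1.2e-06), again without overlap. HIST1H2BE had 19, 34 and 28 counts in combination libraries, 32, 24 and 22 in radiation libraries, 6, 15 and 12 in IFNγ libraries and 13, 11 and 7 in untreated libraries, and it was higher after radiation by 1.37 ± 0.31 (edgeR adjusted p = 0.00015). The lowest radiation library of HIST1H2BE lay above the highest untreated one. HIST1H2BN had 34, 37 and 48 counts in combination libraries, 45, 31 and 48 in radiation libraries, 17, 17 and 28 in IFNγ libraries and 27, 21 and 25 in untreated libraries. Radiation libraries again lay above untreated ones, with a log2 fold change of 0.81 ± 0.22 (edgeR adjusted p = 0.00165). HIST1H2BJ, a further H2B gene, was higher by 0.78 ± 0.30 (edgeR adjusted p = 0.0244). Over 19 alternatives the adjusted p ran from 0.00158 to 0.117. The call was lost without untreated replicate 2 (adjusted p = 0.104), untreated replicate 3 (0.117), radiation replicate 1 (0.0736) or radiation replicate 3 (0.102), and by DESeq2 (0.0542).

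HIST1H2BK, the most abundant of the 20 genes, was one of the H2B genes not called after radiation. HIST1H2BK had 261, 260 and 278 counts in combination libraries, 209, 204 and 225 in radiation libraries, 294, 273 and 262 in IFNγ libraries and 256, 249 and 219 in untreated libraries. Its log2 difference between radiation and untreated libraries was -0.14 ± 0.08 (edgeR adjusted p = 0.145). HIST3H2BB, the H2B gene of the small cluster on chromosome 1, had a log2 difference of -0.66 ± 0.40 (edgeR adjusted p = 0.158). Neither passed the test.

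Among the H2A genes, HIST1H2AG showed the largest positive fold change of the 20 in this comparison. HIST1H2AG had 48, 72 and 61 counts in combination libraries, 59, 57 and 53 in radiation libraries, 16, 29 and 24 in IFNγ libraries and 18, 16 and 19 in untreated libraries. The groups with and without radiation did not overlap, and the log2 fold change in radiation against untreated libraries was 1.71 ± 0.22 (edgeR adjusted p = 1.04e-09). HIST1H2AC had 181, 189 and 199 counts in combination libraries, 139, 138 and 166 in radiation libraries, 107, 117 and 134 in IFNγ libraries and 89, 81 and 71 in untreated libraries. This gene, whose upstream stretch is shared with HIST1H2BC, was higher after radiation by 0.92 ± 0.12 on the log2 scale (edgeR adjusted p = 8.95e-10), and its 4 groups were ordered combination, radiation, IFNγ and untreated with no overlap between neighbours. HIST1H2AI had 9, 4 and 15 counts in combination libraries, 13, 17 and 7 in radiation libraries, 9, 5 and 10 in IFNγ libraries and 9, 2 and 6 in untreated libraries. Here radiation and untreated libraries overlapped. The log2 fold change of HIST1H2AI was 1.15 ± 0.46 (edgeR adjusted p = 0.0291), and without radiation replicate 2 it was 0.85 ± 0.53 (adjusted p = 0.182; over 19 alternatives 0.00828 to 0.184). The call was also lost without untreated replicate 2 (adjusted p = 0.184) and without radiation replicate 1 (adjusted p = 0.07), and by DESeq2 (adjusted p = 0.085).

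HIST3H2A, the H2A gene paired head to head with HIST3H2BB, went down. HIST3H2A had 40, 35 and 47 counts in combination libraries, 38, 40 and 39 in radiation libraries, 77, 87 and 87 in IFNγ libraries and 73, 72 and 72 in untreated libraries. Every irradiated library was below every unirradiated one, and the log2 fold change in radiation against untreated libraries was -0.84 ± 0.16 (edgeR adjusted p = 6.89e-06).

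The single testable H3 gene, HIST1H3H, was higher after radiation by 0.63 ± 0.27 on the log2 scale (edgeR adjusted p = 0.0419). Without radiation replicate 2 the value was 0.50 ± 0.30 (adjusted p = 0.16; over 19 alternatives 0.0159 to 0.218). The call was also lost without untreated replicate 1 (adjusted p = 0.0792), untreated replicate 2 (adjusted p = 0.218) or radiation replicate 1 (adjusted p = 0.079), by DESeq2 (adjusted p = 0.116) and with no filter on low counts (adjusted p = 0.0572).

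A pair of H4 genes had the largest fold changes in size among the 20. HIST1H4A had 2, 1 and 2 counts in combination libraries, 1, 5 and 1 in radiation libraries, 13, 10 and 12 in IFNγ libraries and 18, 18 and 11 in untreated libraries. HIST1H4B had 1, 2 and 4 counts in combination libraries, 2, 7 and 2 in radiation libraries, 16, 8 and 20 in IFNγ libraries and 15, 18 and 15 in untreated libraries. No irradiated library of either gene reached 10 counts, and none overlapped an unirradiated library. HIST1H4A had a log2 fold change of -2.64 ± 0.49 in radiation against untreated libraries (edgeR adjusted p = 5.8e-06) and HIST1H4B one of -2.04 ± 0.46 (edgeR adjusted p = 0.000125). Without radiation replicate 2 the values were -3.77 ± 0.65 for HIST1H4A and -2.88 ± 0.59 for HIST1H4B.

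The more abundant H4 genes did not pass the test. HIST1H4I had 134, 134 and 137 counts in combination libraries, 120, 100 and 101 in radiation libraries, 112, 134 and 110 in IFNγ libraries and 130, 109 and 114 in untreated libraries. Its log2 difference between radiation and untreated libraries was -0.09 ± 0.11 (edgeR adjusted p = 0.513). HIST1H4H had a log2 difference of -0.12 ± 0.27 (edgeR adjusted p = 0.736). HIST1H4E had 7, 3 and 9 counts in combination libraries, 12, 41 and 5 in radiation libraries, 20, 24 and 39 in IFNγ libraries and 26, 19 and 27 in untreated libraries. The radiation libraries of HIST1H4E ran from 5 to 41 counts and overlapped every other group. The log2 difference was -0.26 ± 0.61 (edgeR adjusted p = 0.741). Without radiation replicate 2 it was -1.44 ± 0.40 (adjusted p = 0.0019; over 19 alternatives 0.0019 to 0.982).

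The H1 genes that could be tested differ widely in level. HIST1H1C had 178, 195 and 189 counts in combination libraries, 144, 159 and 152 in radiation libraries, 197, 177 and 204 in IFNγ libraries and 191, 172 and 172 in untreated libraries. HIST1H1C encodes an abundant linker histone, and its log2 difference between radiation and untreated libraries was -0.19 ± 0.10 (edgeR adjusted p = 0.0886). HIST1H1E had 2, 3 and 5 counts in combination libraries, 2, 20 and 4 in radiation libraries, 6, 8 and 19 in IFNγ libraries and 14, 26 and 26 in untreated libraries. One radiation library of HIST1H1E, replicate 2, lay among the untreated ones and the other 2 lay far below. The log2 difference was -1.29 ± 0.56 (edgeR adjusted p = 0.067), and without that library it was -2.78 ± 0.53 (adjusted p = 1.56e-05; over 19 alternatives 1.56e-05 to 0.188). It was also called without untreated replicate 1 (adjusted p = 0.0274), without IFNγ replicate 3 (0.0161), without edgeR's robust option (0.0102) and with no filter on low counts (0.000763). HIST1H1E and HIST1H4E are given library by library because of that split, which was seen in the values.

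**Figure D3:**
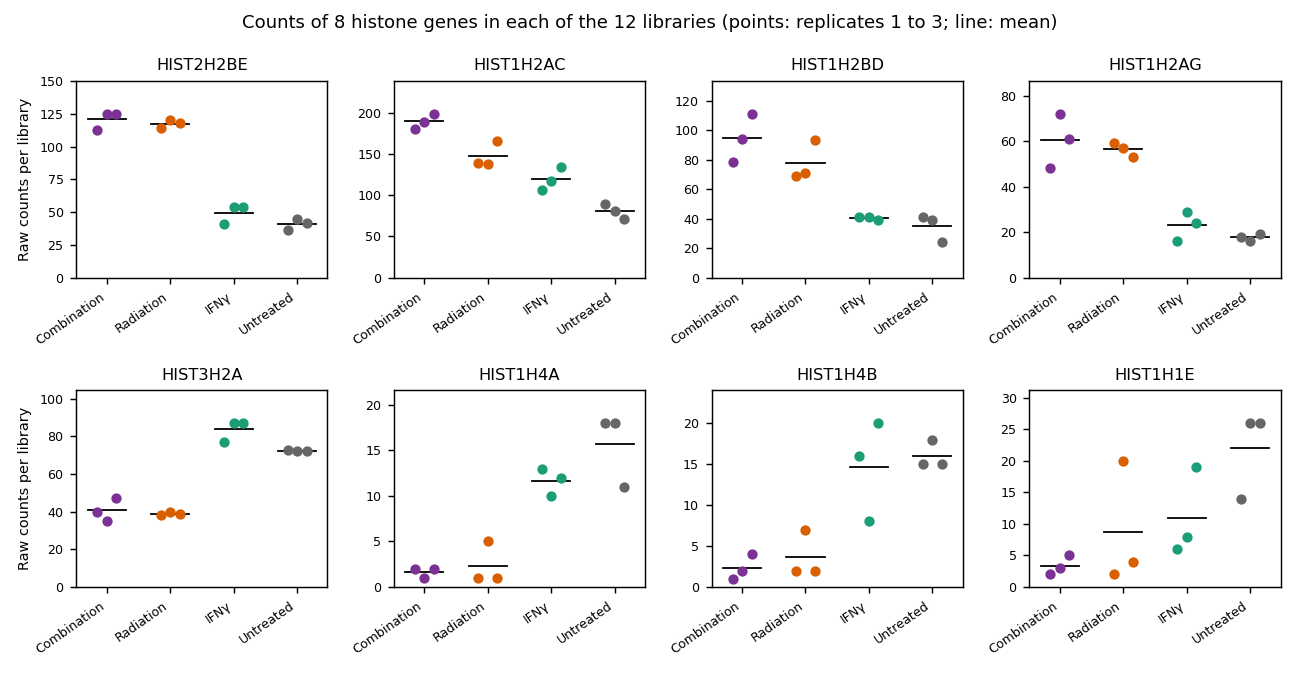
Raw counts of 8 histone genes in each of the 12 libraries, with a point per library and a line at the group mean. HIST2H2BE, HIST1H2AC, HIST1H2BD and HIST1H2AG are higher with radiation, and HIST3H2A, HIST1H4A and HIST1H4B are lower; the HIST1H1E panel shows 1 radiation library at 20 counts and the others at 2 and 4.

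**Figure D4:**
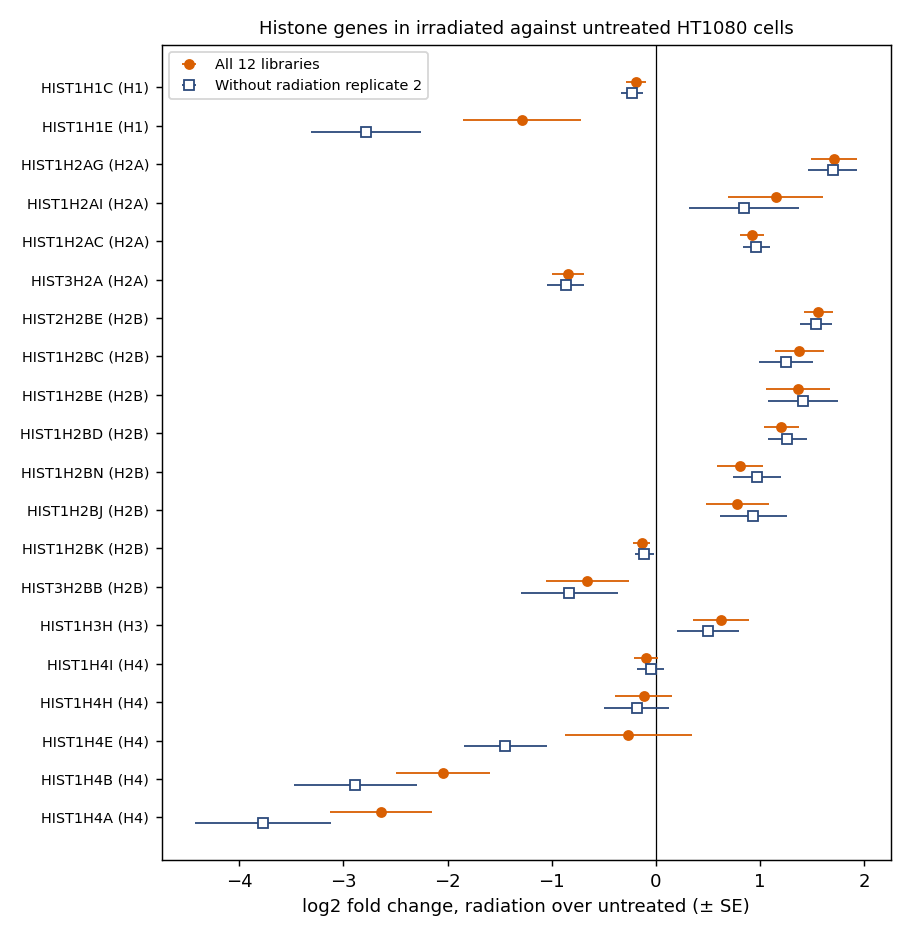
log2 fold change ± SE of the 20 tested histone genes, radiation over untreated, from all 12 libraries (filled circles) and without radiation replicate 2 (open squares). HIST1H1E moves to -2.78 and HIST1H4E to -1.44 when that library is left out, while HIST2H2BE is at 1.56 with it and 1.54 without it.

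A poly(A) signal, AATAAA or ATTAAA in the last 50 bases of an annotated coding transcript, was present for 22 of the 71 genes and 12 of the 20 tested. It was in 44.2% of coding transcripts of all genes. That share counts single transcripts, while a histone gene counts if any of its coding transcripts has the signal. Of the 12 tested genes with it, 9 were called higher after radiation, 1 lower and 2 were not called. Among all genes tested, with or without the signal, 27.9% were called higher and 28.2% lower. Of the 8 tested genes without it, 1 was called higher, 2 lower and 5 were not called. For 3 of these 8, HIST1H4A, HIST1H1C and HIST1H2BK, the annotation holds no bases beyond the coding sequence in which a signal could be found. Of the other 5, 1 was called higher, 1 lower and 3 were not called. HIST2H2BE, HIST1H2AG, HIST1H2BD and HIST1H2AC have both the stem-loop and the signal, as does HIST3H2A, which was lower. HIST1H4B has the stem-loop alone, and neither was found for HIST1H1E. Most tested genes with the signal were of the H2A and H2B classes, and most without it were of other classes. The split by signal therefore follows class in part. It is a description of annotated transcripts and was not tested. The labels' protocol describes removal of ribosomal RNA and the series' design text an mRNA protocol, so how far mRNAs without a poly(A) tail were captured is not known.

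Of the pairs of genes that start back to back, 3 had both members tested. HIST1H2BC and HIST1H2AC, and HIST1H2BJ and HIST1H2AG, whose starts lie 248 bases apart, were called higher in both members of the pair. HIST3H2A was called lower, and HIST3H2BB, which starts 230 bases away, had a log2 difference of the same sign that was not called; the difference between the pair was not tested. In combination against IFNγ libraries both were called lower, as given below. In the octamer search, 6 of the 10 promoters of genes called higher held the octamer, against 0 of 2 for genes called lower and 1 of 7 for genes not called. This is a count over classes that differ in how often they hold the octamer. HIST3H2A, called lower, and HIST3H2BB, not called, had none. Some H2A or H2B genes called higher also had none. The genes called higher were 6 H2B, 3 H2A and 1 H3, and 6 of their 10 promoters held the octamer.

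The effect of radiation in cells that also received IFNγ came from combination against IFNγ libraries. In combination against IFNγ libraries, 8 of the 20 genes were called higher and 5 lower (edgeR), against 30.3% and 30.4% of all genes. Those called higher were 2 of 4 H2A genes and 6 of 8 H2B genes, and those called lower 3 H4 genes, 1 H2A gene and 1 H2B gene. This comparison shares no library with radiation against untreated. All 8 genes called higher here were among the 10 called higher there, which is 100% of the shorter list and 80% of the longer. The 3 called lower there were among the 5 here. This overlap was not counted over all genes, so it is not shown to be particular to the histone genes. HIST2H2BE was higher by 1.24 ± 0.13 (edgeR adjusted p = 6.17e-12) and HIST1H2AG by 1.35 ± 0.20 on the log2 scale. HIST1H4A was lower, with a log2 fold change of -2.76 ± 0.56, and HIST3H2A with one of -1.08 ± 0.15. The additional genes called lower were HIST1H4E, at -2.15 ± 0.76 (edgeR adjusted p = 0.0341; over 19 alternatives 2.84e-07 to 0.0996), and HIST3H2BB, at -1.58 ± 0.36 (edgeR adjusted p = 0.000161). HIST1H2BJ was higher by 0.87 ± 0.26 (edgeR adjusted p = 0.00398) and by 0.45 without combination replicate 3 (adjusted p = 0.169). HIST1H4E lost its call without untreated replicate 1 (adjusted p = 0.055), IFNγ replicate 2 (0.0537) or 3 (0.0985), or combination replicate 1 (0.0738), 2 (0.0996) or 3 (0.0574), and without radiation replicate 2 it was at -2.15 ± 0.36 (adjusted p = 1.28e-06). HIST1H1E was not called, at -1.73 (edgeR adjusted p = 0.0848; over 19 alternatives 0.00159 to 0.266). It was called without IFNγ replicate 1 (adjusted p = 0.0448), radiation replicate 1 (0.0257) or radiation replicate 2 (0.00436), and also with only the groups compared (0.00288), without the robust option (0.0166) or with no filter (0.00159). Radiation libraries enter this comparison through the filter, the scaling and the spread, which all 12 libraries share. HIST1H4H was called without IFNγ replicate 1, at 0.78 (adjusted p = 0.0146).

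The combination against untreated cells gave 9 genes called higher and 4 lower of the 20 (edgeR), against 30.9% and 31.2% of all genes. It shares its untreated libraries with the radiation comparison. HIST1H2AC was higher by 1.21 ± 0.11 on the log2 scale in combination libraries (edgeR adjusted p = 2.19e-14) and HIST1H2BJ by 1.25 ± 0.28 (edgeR adjusted p = 0.000147). HIST1H1E was lower, at -2.70 ± 0.70 (edgeR adjusted p = 0.00372), with 2 to 5 counts in combination libraries against 14 to 26 in untreated libraries. HIST1H2AI, at 0.68 ± 0.49, was not called (edgeR adjusted p = 0.225). HIST1H3H was higher by 0.67 ± 0.26 (edgeR adjusted p = 0.0247, and over 19 alternatives 0.00938 to 0.158). Its call was lost without untreated replicate 1 (adjusted p = 0.0519), untreated replicate 2 (0.158) or combination replicate 3 (0.0741), and by DESeq2 (0.0835). HIST1H2BN was higher by 0.68 ± 0.22 (edgeR adjusted p = 0.00765), and by 0.54 without combination replicate 3 (adjusted p = 0.0626). HIST1H4E was not called, at -1.93 (edgeR adjusted p = 0.0577; over 19 alternatives 2.58e-06 to 0.15), but was by DESeq2 (adjusted p = 0.0176), with only the groups compared (2.58e-06), without the robust option (0.000722), with no filter (0.000954), and without radiation replicate 2 (1.58e-05) or 3 (0.00153). HIST3H2BB was called lower without untreated replicate 2 (adjusted p = 0.0357) or combination replicate 3 (0.014), and HIST1H4H higher without untreated replicate 2 (adjusted p = 0.0229).

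IFNγ alone was set against no treatment next. In IFNγ against untreated libraries, 2 of the 20 genes were called higher, against 15% of all genes, a share near the background. The H2A and H2B sums of every IFNγ library lay above those of every untreated library, as given above. None was called lower by edgeR or by DESeq2, and 0 had a negative difference at an unadjusted p under 0.05 by either tool. Of all genes, edgeR called 14.1% lower and DESeq2 9.84%. DESeq2 called 1 of the 20 higher, against 11.5% of all genes. HIST1H2AC was higher by 0.59 ± 0.12 on the log2 scale (edgeR adjusted p = 0.000108), a call kept in all 19 alternatives. HIST1H2BK was higher by 0.21 ± 0.08 (edgeR adjusted p = 0.0286), and its adjusted p over the alternatives ran from 0.0217 to 0.192. It was 0.115 when libraries were scaled by their totals, 0.11 without untreated replicate 3 and 0.192 without IFNγ replicate 1. HIST2H2BE had a log2 difference of 0.29 ± 0.17 (edgeR adjusted p = 0.21) and HIST3H2A one of 0.23 ± 0.13 (edgeR adjusted p = 0.208), neither past the threshold. HIST1H1E, at -0.98 (edgeR adjusted p = 0.201; over 19 alternatives 0.0208 to 0.437), was called lower without IFNγ replicate 3 (-1.64, adjusted p = 0.0233) and without radiation replicate 2 (-0.97 ± 0.34, adjusted p = 0.0248), and likewise with only the groups compared (0.0396) or no filter on low counts (0.0208). HIST3H2BB was called higher without untreated replicate 1 (0.96, adjusted p = 0.0457).

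Adding IFNγ to radiation gave 3 genes called higher and 0 lower of the 20 in combination against radiation libraries (edgeR), against 14.5% and 12.4% of all genes. At an unadjusted p under 0.05 edgeR gave 5 higher and 0 lower, and DESeq2 called 0 in either direction, with 2 higher and 1 lower at an unadjusted p under 0.05. Of all genes DESeq2 called 11.2% higher and 8.5% lower here. HIST1H2AC was higher by 0.29 ± 0.10 on the log2 scale (edgeR adjusted p = 0.0177) and HIST1H2BK by 0.25 ± 0.08 (edgeR adjusted p = 0.0106). HIST1H4H had 29, 31 and 35 counts in combination libraries, 20, 21 and 17 in radiation libraries, 30, 16 and 20 in IFNγ libraries and 22, 28 and 15 in untreated libraries. All combination libraries of this H4 gene lay above all radiation libraries, and the log2 fold change was 0.64 ± 0.25 (edgeR adjusted p = 0.0498; over 19 alternatives 0.0382 to 0.181). Without radiation replicate 2, HIST1H2BK was the 1 gene called higher, against 12.6% of all genes, and 0 were called lower, against 10.3%. HIST1H2AC then had an adjusted p of 0.0879 and HIST1H4H one of 0.0637. HIST1H4H lost its call without any 1 of the 6 libraries compared. HIST1H2AC also lost its call without radiation replicate 1 (adjusted p = 0.0769) and combination replicate 3 (adjusted p = 0.0552). HIST1H4E was called lower without radiation replicate 3 (-2.13, adjusted p = 0.0038), without the robust option (0.0116) and with no filter (0.0157), HIST1H1E lower with no filter (0.0417), HIST1H1C higher with only the groups compared (0.0463), and HIST1H4I higher without radiation replicate 1 (0.37, adjusted p = 0.0248).

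The interaction asked whether the effect of IFNγ differed between irradiated and unirradiated cells. It was called for 0 of the 20 genes by edgeR and by DESeq2, and for 0 at an unadjusted p under 0.05 by either tool, against 1.38% of all genes called higher and 0.995% called lower by edgeR, and 0.691% and 0.617% by DESeq2. Without radiation replicate 2 it was again called for 0 of the 20 (edgeR), against 0.74% and 0.633% of all genes. The log2 interactions ran from -1.88 for HIST1H4E to 0.60 for HIST1H4H, and the lowest edgeR adjusted p was 0.375. For HIST1H2AC, the gene called in both IFNγ comparisons with the larger change, the interaction was -0.30 ± 0.16. A p that misses the threshold does not show that the effects were equal.

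Most genes of histone supply and DNA replication were called lower after radiation. Of 22 factors that transcribe or process histone mRNA, 14 were called lower in radiation than in untreated libraries and 1 higher (edgeR, same fit), beside the 28.2% and 27.9% of all genes. SLBP, the stem-loop binding protein, averaged 48.8 ± 1.57 CPM in radiation libraries and 94.8 ± 2.54 CPM in untreated libraries, a log2 fold change of -0.96 ± 0.05. NPAT, the coactivator of histone transcription, had a log2 fold change of -0.39 ± 0.06 and CASP8AP2, a partner of NPAT in the histone locus body, one of -0.52 ± 0.07. ERI1, an exonuclease that trims histone mRNA ends, was lower after radiation, at -0.76 ± 0.05, and higher after IFNγ alone, at 0.67 ± 0.05. The one factor called higher was ZCCHC6, which adds uridines to RNA ends, at 0.28 ± 0.06.

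Of 11 tested variant histones, 7 were called lower after radiation and 0 higher (edgeR), against 28.2% and 27.9% of all genes. H1F0, the linker variant known from non-dividing cells, averaged 32.9 ± 0.99 CPM in radiation libraries against 230.5 ± 5.06 CPM in untreated libraries, a log2 fold change of -2.81 ± 0.05. H1FX had a log2 fold change of -1.45 ± 0.05, and H2AFZ and H3F3B of -0.70 ± 0.03 and -0.69 ± 0.03. H2AFX, the variant phosphorylated at DNA breaks, had one of -0.57 ± 0.05. It was also the single variant with a called interaction, 0.28 ± 0.07 (edgeR adjusted p = 0.024). H2AFJ was not called, at -0.14 ± 0.13.

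Of 21 histone chaperones, 18 were called lower after radiation and 1 higher, against 28.2% and 27.9% of all genes. CHAF1B, a subunit of the assembly factor that works at replication forks, had a log2 fold change of -0.98 ± 0.07, CHAF1A of -0.86 ± 0.05, ASF1B of -0.63 ± 0.07 and NASP of -0.31 ± 0.04. ATRX, which helps deposit a variant H3, was the one called higher, at 0.34 ± 0.04. Of 27 S phase genes, 25 were called lower and 1 higher, beside the same 28.2% and 27.9%. MCM6, a subunit of the replicative helicase, had a log2 fold change of -2.72 ± 0.05, E2F1 of -2.30 ± 0.09 and CCNE2 of -2.04 ± 0.13, while CDK2 was at -0.15 ± 0.05. The gene called higher was PCNA, at 0.47 ± 0.03. Median log2 fold changes were -0.57 for the variants, -0.32 for the mRNA factors, -0.33 for the chaperones and -0.95 for the S phase genes, against 0.27 for the 20 histone genes.

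IFNγ alone called 13 of the 27 S phase genes higher and 0 lower, 6 higher and 1 lower of the mRNA factors, 6 higher and 1 lower of the chaperones, and 3 higher and 1 lower of the variants (edgeR), against 15% of all genes called higher and 14.1% lower. RRM2, a subunit of ribonucleotide reductase, was the S phase gene with the largest rise, 0.26 ± 0.03 on the log2 scale.

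The genes below the filter could be fitted only by lifting it, with all 17361 genes that had a count. In radiation against untreated libraries, 14 histone genes were then called higher and 6 lower by edgeR, against 19.8% and 19.9% of the 17361 genes. All counts from this fit are out of the 71 histone genes less the 8 with 0 counts, not out of the 20 tested above. On that base the number called higher after radiation lies near the share of all genes. The genes named next were chosen after their values were seen. HIST1H2BM, an H2B gene, was among those added as lower. HIST1H2BM had 1, 0 and 1 counts in combination libraries, 1, 4 and 0 in radiation libraries, 6, 6 and 8 in IFNγ libraries and 9, 9 and 12 in untreated libraries. Its irradiated libraries all lay below its unirradiated ones, and its log2 fold change in radiation against untreated libraries was -2.46 (edgeR adjusted p = 0.000493). HIST2H4A had 4, 5 and 4 counts in combination libraries, 6, 2 and 2 in radiation libraries, 1, 0 and 2 in IFNγ libraries and 0, 0 and 1 in untreated libraries, and this H4 gene was called higher on these few counts. HIST1H4D, HIST1H4F and HIST1H3F were called higher in this fit on 18, 6 and 6 counts in radiation replicate 2, against 0 to 1 in the other radiation libraries. In combination against untreated libraries 10 were called higher and 9 lower, against 22.2% and 21.6% of these genes, and in combination against IFNγ libraries 8 higher and 9 lower, against 20.9% and 21.9%. In IFNγ against untreated libraries 2 were called higher and 1 lower, against 11.5% and 8.7%, and in combination against radiation libraries 2 higher and 3 lower, against 10.4% and 8.12%.

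**Figure D5:**
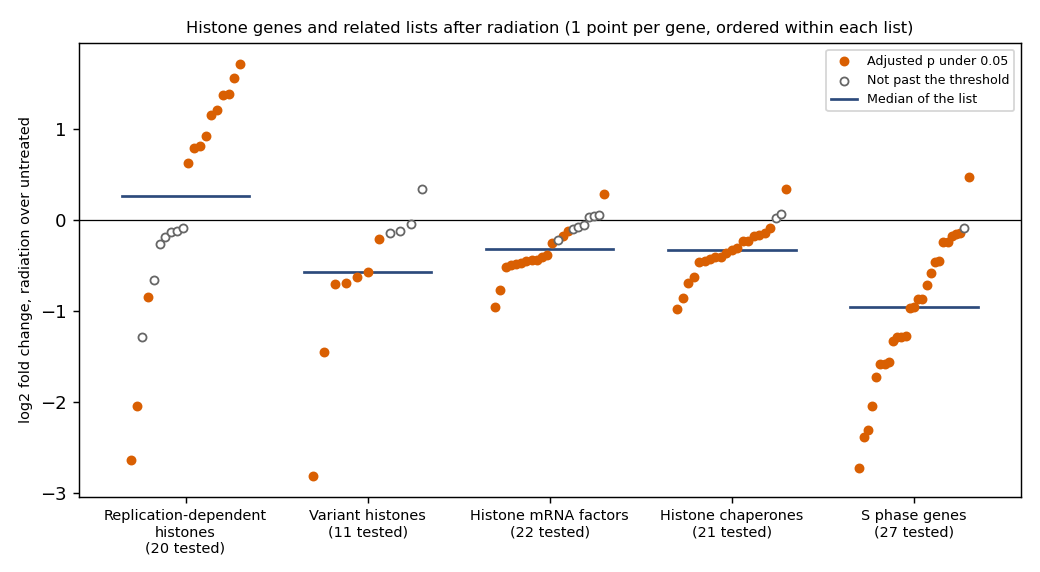
log2 fold change, radiation over untreated, with 1 point per gene for the 20 tested histone genes and 4 related lists, filled where the adjusted p is under 0.05. The median, a horizontal line, is 0.27 for the histone genes and -0.57, -0.32, -0.33 and -0.95 for variant histones, histone mRNA factors, chaperones and S phase genes.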

How the data were processed

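RNA of 12 HT1080 libraries was sequenced. Per the labels' protocols, total RNA was column purified with DNase, ribosomal RNA was removed, and stranded libraries were read in pairs; the series' design text names an mRNA protocol. The deposited table holds raw counts, which the authors left without normalization. The submitters' processing notes name TopHat2 2.0.13, FastQC 0.11.3, Cuffdiff 2.2.1 and Cufflinks, and the genome build hg19 (GRCh37). Not given in the sources used here are the read counter, whether it used strand, and the release of the annotation.

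Genes were filtered with filterByExpr, scaled with TMM (trimmed mean of M-values) and fitted together in edgeR 4.0.16 (R 4.3.3), with robust quasi-likelihood F tests and Benjamini-Hochberg adjustment over 12160 genes. Calls needed an adjusted p under 0.05. Each standard error is approximate: the size of the log2 fold change over the square root of F. The common biological coefficient of variation was 2.71%. The fit was tested on simulated data. Depth, 9675126 to 11010656 counts, limits precision for genes with few counts; floors cover counting error only.

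The members and lists were chosen with earlier results of these data known. Library values are printed for members among the 10 highest in mean CPM, among the 6 largest called in either direction after radiation, or called in IFNγ against untreated, combination against radiation or the interaction. Of the related lists, named genes were preset or among the 3 largest called in a direction. No sample was dropped. Alternatives were library totals, DESeq2 1.42.0, other filters, no robust option, only the groups compared, a replicate block and leaving out each library. The class sums without radiation replicate 2 were added after the data were seen. Stem-loops and coding lengths come from GENCODE release 29, and promoters from RefSeq on GRCh38.p14; the counts' build differs, so no coordinates were taken from it.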

Additional observations from a re-analysis of the deposited data

How the results depend on the processing

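The 44 calls of single histone genes in the 5 comparisons were each refitted under 19 alternatives: 787 refits kept the call, 49 lost it and 0 turned its sign. Of the 56 gene comparisons not called, 13 gained a call in 36 refits, 29 of them for HIST1H1E or HIST1H4E, and 28 refits gave another sign, 0 of these called. The cause was not tested. With library totals in place of TMM, or with DESeq2, 1 gene was called higher after IFNγ; DESeq2 called 0 higher in combination against radiation. With no filter on low counts, the genes called lower numbered 6 in radiation against untreated, 1 in IFNγ against untreated and 9 in combination against untreated. They numbered 9 in combination against IFNγ and 3 in combination against radiation. That fit tested 17361 genes, among them the 71 histone genes less the 8 with 0 counts. Without the robust option 1 gene was called lower in combination against radiation, and with only the groups compared 1 was called lower after IFNγ. With 1 library left out, the genes called ranged from 1 to 3 higher and 0 to 1 lower after IFNγ, from 7 to 10 higher and 3 to 5 lower after radiation, the 5 without radiation replicate 2, and from 1 to 3 higher and 0 to 1 lower in combination against radiation. Shares over all genes were counted for no filter, DESeq2 and, in some comparisons, leaving out radiation replicate 2. Under the other alternatives they were not counted, so those counts of histone genes have no background beside them. The labels do not say whether replicate numbers pair the libraries. Over 18 same-numbered pairs the correlation of deviations from group means ran from -0.0711 to 0.0537. These values show no large shared deviation, but cannot show that same-numbered libraries were handled apart. With the replicate number as a block, 10 genes were called higher and 4 lower after radiation, and 2 higher and 1 lower after IFNγ. Library totals shifted the median of all genes by at most 0.06 in size on the log2 scale. At this depth 51 of the 71 genes, 14 of 15 H3 genes among them, had too few counts to be tested; why was not tested. In the block fit HIST1H1E was called lower in radiation against untreated (adjusted p = 0.00452), in IFNγ against untreated (0.0396) and in combination against IFNγ (0.009), and HIST1H4E in combination against IFNγ (0.0681) and HIST1H4H in combination against radiation (0.051) lost their calls.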
